A study of Mus musculus with 24 samples.

Results

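Mitochondrial respiration passes electrons from NADH and succinate to oxygen and uses the proton gradient that results to make ATP. The genes described here are the nuclear genes for the part of that chain downstream of complex I. They were chosen by gene name, as every gene whose symbol begins with Uqcr, Cox4 to Cox8 or Atp5, together with Sdha, Sdhb, Sdhc, Sdhd, Cyc1 and Cycs. Symbols with a hyphen, 12 in all and each the name of a pseudogene, were left out. The rule took 51 of the 56941 genes listed. They comprise 4 genes of complex II, 9 of complex III, the cytochrome c gene Cycs, 19 of complex IV and 18 of complex V. Of these, 45 had enough counts to be tested, and 6 did not: Cox4i2, Cox6b2, Cox6c2, Cox7b2, Cox8c and a second entry named Atp5o that has a count of 0 in every library.

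Complex II (succinate dehydrogenase) links the citrate cycle to the chain and is encoded entirely in the nucleus. Complex III moves electrons from ubiquinol to cytochrome c, a small mobile protein, and complex IV (cytochrome c oxidase) passes them to oxygen. Complex V (ATP synthase) lets protons back through a membrane rotor and makes ATP in its catalytic head. Complexes III, IV and V also hold subunits encoded by mitochondrial DNA. Some complex IV subunits come in a form typical of heart and skeletal muscle and a form found in most tissues. Endurance exercise is well known for raising respiratory capacity in skeletal muscle, which makes these genes a natural readout of a training protocol.

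The cells were C2C12, mouse myoblasts that can be grown into contracting myotubes, in an engineered form that carries ChR2 (a channel opened by blue light) tagged with tdTomato. All 4 groups carried the same construct, so that the controls were unstimulated cells of the same genotype. The cells were differentiated on fibrin gels and received light for 60 min each day at 1, 4 or 10 Hz, or no light (Control), with 6 libraries per group and 24 in all. The study gives them as biological replicates. A single engineered line was used, and the replicates are cultures of it rather than separate animals or lines. Depth ran from 8052369 to 18159144 estimated counts per library. The cells are labelled as myoblasts, and all 12 myotube marker genes were detected, with a summed level of 13076 to 16585 CPM (counts scaled to a common library size of 1000000) in the controls, while fat cell markers summed to at most 0.475 CPM in any library. In RNA from a whole culture, fewer cells of a type and less RNA per cell cannot be told apart.

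Upstream sequence of 3 members, picked with their values known, is shown first, 1 each from complexes III, IV and V. All 3 hold the GABP core described below, which 9 of the 35 members with a matched promoter have. Other members called at 4 Hz, among them Cox7a1, Cox7a2 and Cox7b, hold none of the cores searched. The sequences are the 250 bases before the annotated start in RefSeq (GRCm38.p6), written 5′ to 3′ on the gene's own strand. Capitals mark matches to CCGGAAG, the core bound by GABP, and GCATGCG, a half-site of NRF1. Both factors are known regulators of respiratory genes. Each core was searched on both strands, so that CTTCCGG marks a GABP core on the other strand. The NRF1 half-site is nearly its own reverse complement and the matches on the 2 strands overlap by all but 1 base, which gives the 8 capitals in Cox6a1.
Cox6a1 upstream (chr5:115348959-115349208, minus strand): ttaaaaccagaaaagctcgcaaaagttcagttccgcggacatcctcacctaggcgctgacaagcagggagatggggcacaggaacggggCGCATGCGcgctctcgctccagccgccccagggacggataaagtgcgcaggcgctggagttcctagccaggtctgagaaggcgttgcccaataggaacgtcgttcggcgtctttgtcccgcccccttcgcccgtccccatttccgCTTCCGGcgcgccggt
Uqcrh upstream (chr4:116075071-116075320, minus strand): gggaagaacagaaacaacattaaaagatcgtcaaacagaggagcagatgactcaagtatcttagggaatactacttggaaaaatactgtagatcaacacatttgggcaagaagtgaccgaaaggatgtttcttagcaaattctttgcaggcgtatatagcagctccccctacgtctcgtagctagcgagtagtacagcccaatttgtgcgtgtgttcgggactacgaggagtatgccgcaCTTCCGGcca
Atp5e upstream (chr2:174464102-174464351, minus strand): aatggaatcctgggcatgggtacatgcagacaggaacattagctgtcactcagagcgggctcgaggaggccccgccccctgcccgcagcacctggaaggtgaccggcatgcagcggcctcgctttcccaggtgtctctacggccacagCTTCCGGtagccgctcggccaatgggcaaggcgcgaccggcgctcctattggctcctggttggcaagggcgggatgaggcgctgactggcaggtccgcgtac

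RefSeq upstream sequence was matched for 35 of the members, with 38 promoters. The GABP core was in 23.7% of these against 6.91% of all 32851 promoters of the same length. The NRF1 half-site was in 18.4% against 3.02%. A YY1 core, AAGATGG, was in 2.63% against 4.49%, and an ERR half-site, AAGGTCA, in 5.26% against 4.08%. These matches describe letters and not bound sites.

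At 4 Hz, 34 of the 45 tested members rose against the controls and 0 fell, at an adjusted p under 0.05 in edgeR's quasi-likelihood test over all 13315 tested genes. Among all tested genes, 27.5% were called higher in the same comparison. All 45 members had a positive log2 fold change (55.3% of all tested genes), and their median was 0.45, against 0.06 for all tested genes. At 1 Hz, 14 members rose and 0 fell (19.2% of all tested genes were called higher), with a median of 0.31 against 0.04 and 41 positive changes (54.5% of all tested genes). At 10 Hz, 0 members were called in either direction, where 0.015% of all tested genes were called higher and 0.0225% lower. The median at 10 Hz was -0.06 and 8 members had a positive change (52.1% of all tested genes), with the other 37 below the controls. No member reached an unadjusted p under 0.05 at 10 Hz (0 of 45), and DESeq2 also called 0.

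**Figure D1:**
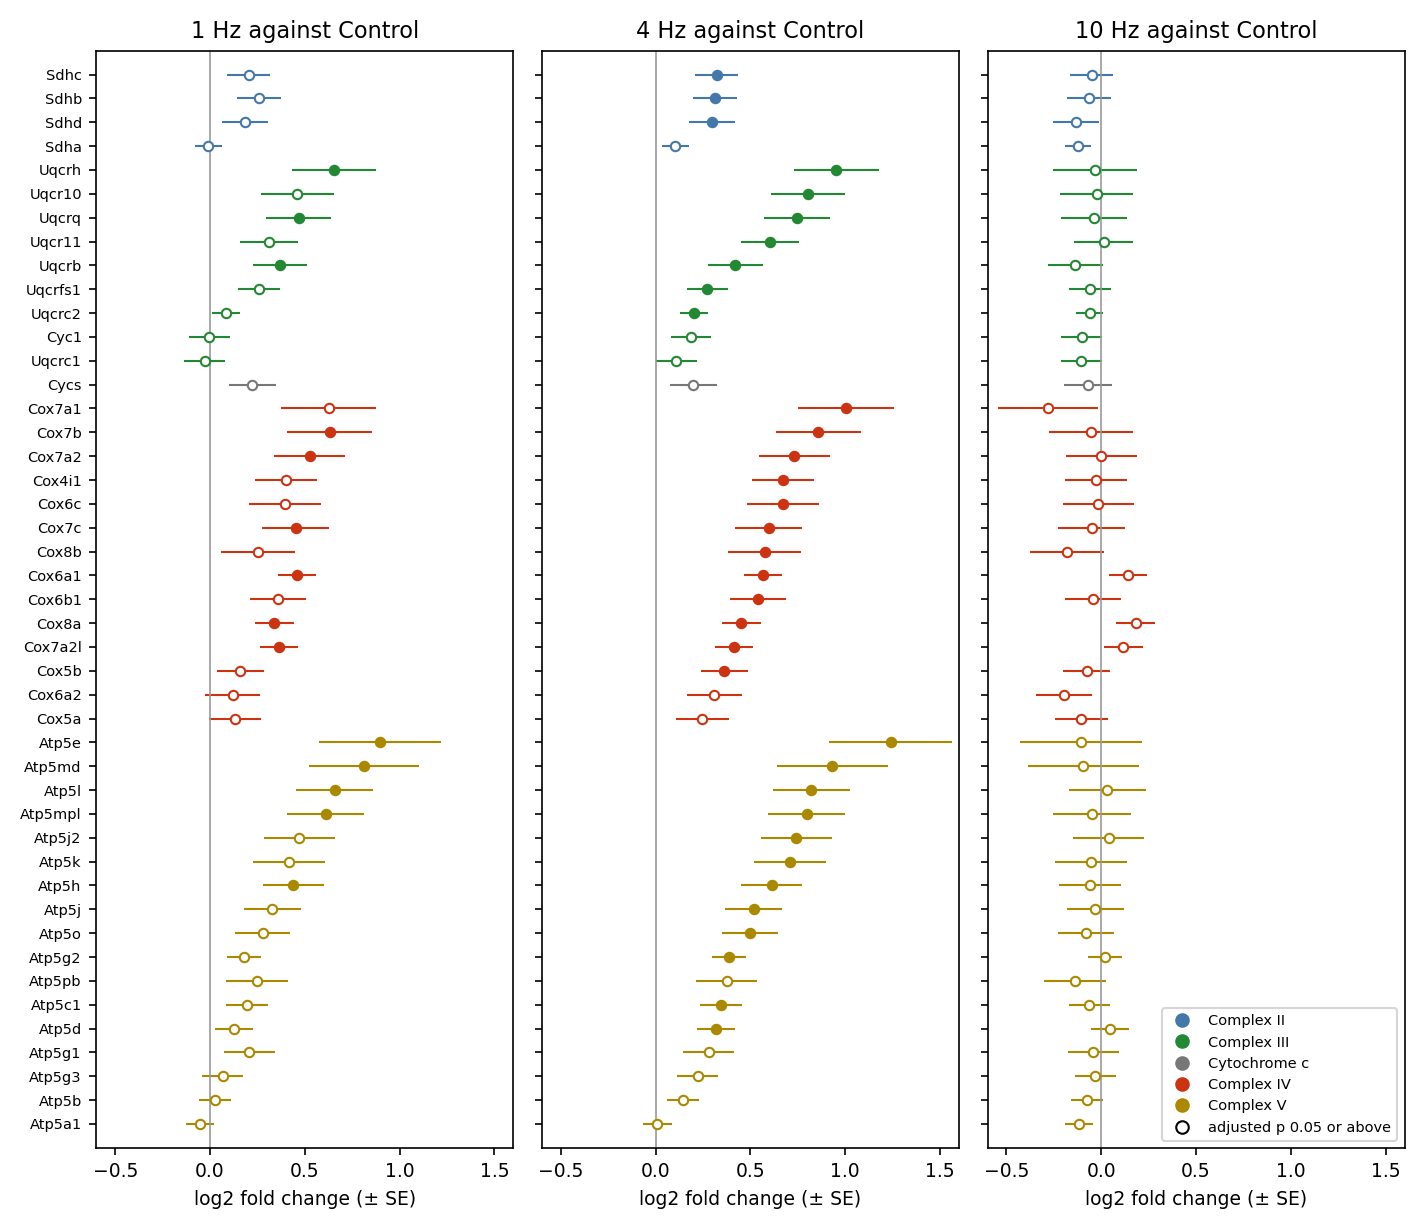
Log2 fold change of each of the 45 tested members against the controls at 1, 4 and 10 Hz, with its standard error. Members are colored and grouped by complex, and sorted within each complex by the change at 4 Hz. Filled points have an adjusted p under 0.05 in edgeR: 14 at 1 Hz, 34 at 4 Hz and 0 at 10 Hz, with Atp5e and Cox7a1 highest at 4 Hz and Atp5a1, Sdha and Uqcrc1 lowest.

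The rise at 4 Hz has to be read beside transcript length. Over the 45 members, the log2 fold change at 4 Hz fell with relative effective length (the length that the deposited counts and TPM imply, set against the median tested gene), with a Spearman correlation of -0.77 across genes. Over the 13270 other genes it was -0.37. At 1 Hz the values were -0.69 and -0.32, and at 10 Hz -0.17 and -0.07. The correlations are across genes measured in the same libraries, and genes are not independent replicates. Of the 45 members, 36 lie in the shortest of 5 equal length classes. The 2627 other genes in that class had a median log2 fold change of 0.37 at 4 Hz, and 47.9% of them were called higher, against 31 of the 36 members and a median of 0.57. In the longest class, the median of the other genes at 4 Hz was -0.14 and 13.7% were called higher.

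**Figure D2:**
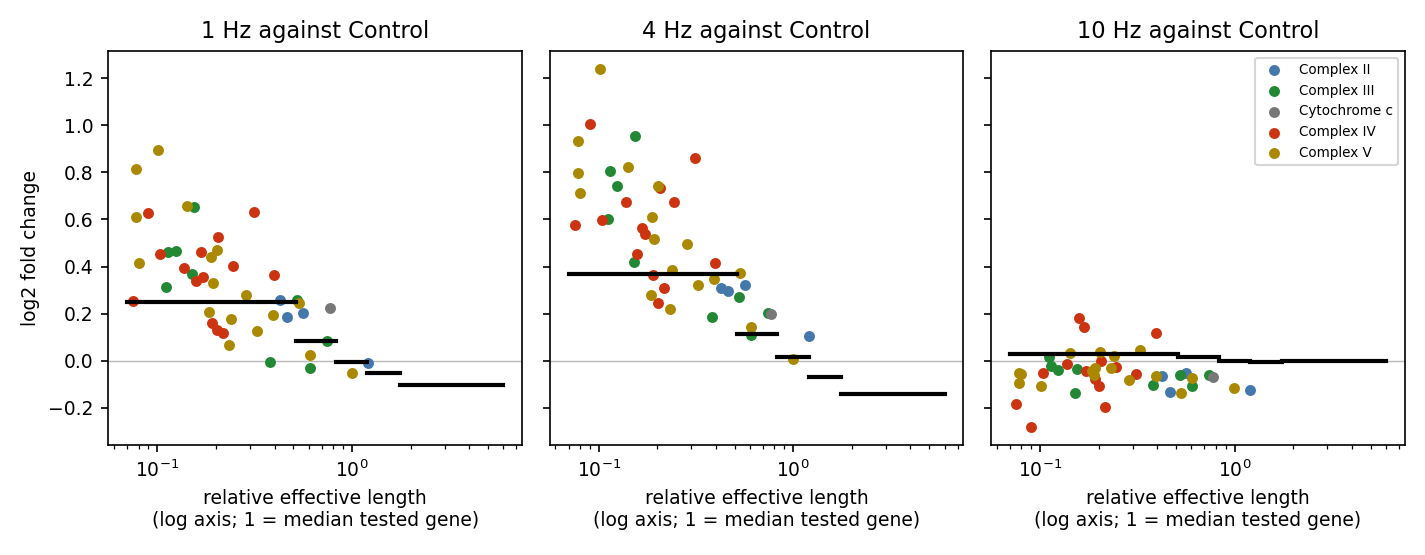
Log2 fold change of the 45 tested members against relative effective length (log axis) at 1, 4 and 10 Hz, with black lines for the median of the other tested genes in each of 5 length classes; the outer ends of the first and last line are cut at the plotted range. Short genes lie highest at 1 and 4 Hz, where the medians of the shortest class of other genes were 0.25 and 0.37, and the lines are nearly flat at 10 Hz.

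With the length trend of the other genes removed from each library, 12 members were called higher at 4 Hz and 3 lower (24.9% and 24.5% of all tested genes), and the median of the members was 0.10 against 0.03 for all tested genes. All 12 had also been called without this step. They were Sdhc of complex II, Uqcrh, Uqcrq and Uqcr10 of complex III, Cox4i1, Cox7a1, Cox7a2, Cox7a2l and Cox7b of complex IV, and Atp5e, Atp5j2 and Atp5l of complex V. The 3 lower were Cox5a, Atp5g1 and Atp5g3, which had not been called before. On this scale the share of members called higher was close to that of all genes. Whether RNA quality, library preparation or the cells themselves gave the length trend was not tested.

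**Figure D3:**
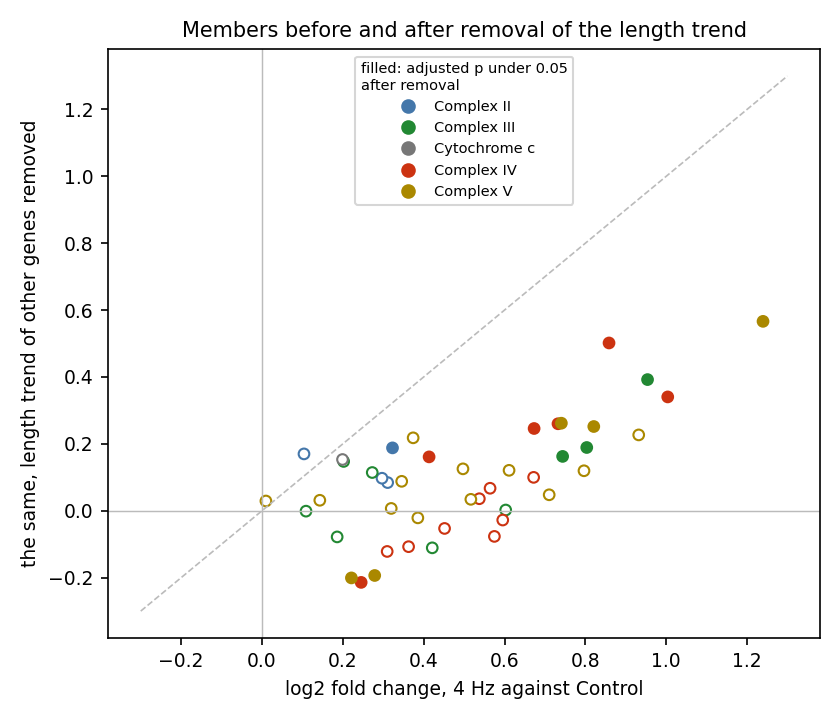
Log2 fold change at 4 Hz of the 45 members as fitted (horizontal) and with the length trend of the other genes removed (vertical), colored by complex; filled points have an adjusted p under 0.05 after removal and the dashed line marks equal values. Most members lie below the line, with 12 still called higher, Atp5e at the top right, and 3 called lower.

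The TPM values gave a further scale. On log2(TPM + 1), the median of all tested genes moved to -0.14 at 1 Hz and -0.21 at 4 Hz, so that a change has to be read against that shift. At 4 Hz the members' median was 0.11 on that scale, and limma called 17 members higher and 3 lower (Sdha, Uqcrc1 and Atp5a1), while 782 of 13422 genes were called higher (5.83%) and 4818 lower (35.9%). On the counts, 3664 genes were called higher and 3178 lower. The members together made up 2.02% ± 0.114 (SD, n = 6) of all TPM in the controls. With light they made up 2.18% ± 0.294 for 1 Hz, 2.30% ± 0.197 for 4 Hz and 1.94% ± 0.112 for 10 Hz.

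Complex II had the smallest median change of complexes II to V at 4 Hz, 0.30, and 3 of its 4 genes rose. Its genes are also the longest of these complexes, with a median relative effective length of 0.51. The medians of complexes III, IV and V were 0.15, 0.18 and 0.20, and the part of length in the ranking was not tested. Sdhb, the iron-sulfur subunit, ranged from 93.4 to 121 CPM in the controls (median 97.4) and from 111 to 148 CPM for 4 Hz (median 124), a log2 fold change of 0.31 ± 0.12 (SE; adjusted p 0.027). Sdhc and Sdhd, which anchor the complex in the membrane, changed by 0.32 and 0.30 (adjusted p 0.020 and 0.045 in edgeR). All 3 calls ended when single libraries were left out: Sdhb without replicates 3, 4 or 5 of Control or 3 or 4 of 4 Hz, Sdhc without replicate 5 of Control or 3 or 4 of 4 Hz, and Sdhd in 9 of 12 settings (all but those without replicate 1 of Control or 2 or 5 of 4 Hz), with adjusted p of up to 0.11, 0.067 and 0.17 in edgeR. On log2(TPM + 1) their changes were slightly negative, but above the negative median of all tested genes on that scale. Sdha, the flavoprotein that oxidizes succinate and the tested member with the highest relative effective length (1.21), ranged from 182 to 207 CPM in the controls (median 194) and from 192 to 236 CPM at 4 Hz (median 206). Its log2 fold change of 0.10 ± 0.07 did not pass (adjusted p 0.22), and it was -0.23 on log2(TPM + 1), where it passed (adjusted p 0.038 in limma). The latter value is close to the median of all tested genes on the same scale. The complex as a whole had 626 ± 38.8 TPM in the controls (SD, n = 6) and 594 ± 40.9 TPM at 4 Hz. The groups overlap.

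In complex III, 7 of 9 genes rose at 4 Hz, with a median of 0.42. The largest change was in Uqcrh, the hinge subunit that binds cytochrome c1 (chromosome 4, 115923314 to 115932296, GRCm39). It ranged from 146 to 197 CPM in the controls (median 165), from 148 to 430 CPM at 1 Hz (median 219), from 220 to 529 CPM at 4 Hz (median 299) and from 136 to 192 CPM at 10 Hz (median 162). Every 4 Hz library was above every control library, and the 1 Hz libraries spread across both ranges. The rise was 0.95 ± 0.22 on the log2 scale for 4 Hz, with an adjusted p of 0.0013, and 0.65 ± 0.22 for 1 Hz, with an adjusted p of 0.025. The 1 Hz call ended without replicate 3 of Control or 4 or 6 of 1 Hz (adjusted p up to 0.11 in edgeR).
The small subunit Uqcrq had a median of 115 CPM in the controls (107 to 144) and of 197 CPM for 4 Hz (152 to 268), with no overlap, and rose by 0.74 ± 0.17 (adjusted p 0.0012). The subunits that transfer electrons or form the core are also the longer genes of the complex, with relative effective lengths of 0.38 to 0.74 against 0.11 to 0.15 for the rest. Uqcrfs1, the Rieske iron-sulfur protein, rose by 0.27 ± 0.11 (adjusted p 0.038). Uqcrc2, a core subunit, rose by 0.20 ± 0.07 (adjusted p 0.024). The Uqcrfs1 call ended in 8 of the 12 settings that leave out 1 library (without replicates 2, 3, 4 or 5 of Control, or 1, 3, 4 or 5 of 4 Hz), with an adjusted p of up to 0.14 in edgeR. The Uqcrc2 call ended in 5 (without replicates 3, 4 or 5 of Control, or 1 or 3 of 4 Hz), also with up to 0.14. The other core subunit, Uqcrc1, had a log2 fold change of 0.11 ± 0.11 and Cyc1, cytochrome c1, 0.19 ± 0.11 (adjusted p 0.41 and 0.15 in edgeR). In TPM the complex had 3575 ± 221 in the controls and 4312 ± 492 at 4 Hz (SD, n = 6).

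Cytochrome c itself was not called at any frequency. Cycs ranged from 131 to 165 CPM in the controls (median 141) and from 148 to 193 CPM at 4 Hz (median 158), and its difference of 0.20 ± 0.12 did not pass (adjusted p 0.19).

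In complex IV, 12 of 14 tested genes rose at 4 Hz, with a median of 0.57. Cox6a1, the form of subunit VIa found in most tissues (chromosome 5, 115483701 to 115487050, GRCm39), had the smallest p of the members. It ranged from 87.8 to 107 CPM in the controls (median 96.6), from 103 to 155 CPM at 1 Hz (median 134), from 121 to 171 CPM at 4 Hz (median 143) and from 91.8 to 127 CPM at 10 Hz (median 102). Every 4 Hz library was above every control library. Cox6a1 rose by 0.56 ± 0.10 for 4 Hz, with an adjusted p of 5.8e-05, and by 0.46 ± 0.10 for 1 Hz, with an adjusted p of 0.00088. With length and GC trends removed, the value at 4 Hz was -0.01 and no longer passed.
Cox7a1, the muscle form of subunit VIIa, had the largest change of the complex. It had the lowest TPM of the tested members in the controls (median 75.4 TPM), and measured 8.95 to 13.4 CPM in the controls (median 10.1) and 13.6 to 37.2 CPM at 4 Hz (median 19.0). The ranges do not overlap, and the log2 fold change was 1.00 ± 0.25 (adjusted p 0.0021). Cox7a2, the form of most tissues, rose by 0.73 ± 0.19 and Cox7a2l, which joins complexes III and IV into supercomplexes, by 0.41 ± 0.10 (adjusted p 0.0026 and 0.0015 in edgeR).
Cox4i1, the largest nuclear subunit of the complex, rose by 0.67 ± 0.16 (adjusted p 0.0016), and Cox6b1, on the side that faces cytochrome c, by 0.54 ± 0.15 (adjusted p 0.0042). Cox8a rose by 0.45 ± 0.10, Cox8b by 0.57 ± 0.19 and Cox5b by 0.36 ± 0.12 (adjusted p 0.00080, 0.016 and 0.017 in edgeR). Without 4 Hz replicate 3 the Cox8b and Cox5b calls ended (adjusted p 0.054 and 0.055), and without 4 Hz replicate 4 the Cox5b call did (adjusted p 0.065). Cox5a had 0.25 ± 0.14 and Cox6a2, the muscle form of subunit VIa, 0.31 ± 0.15, and neither passed (adjusted p 0.14 and 0.080). In TPM the complex had 6375 ± 382 in the controls and 7350 ± 587 at 4 Hz (SD, n = 6).

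Isoform pairs were compared as shares of their summed TPM within a library, in 15 exact permutation tests (2-sided, 6 against 6 libraries, smallest possible p 0.0022, adjusted over the 15). Both genes of a pair are read in the same library, so that scaling between libraries drops out. A length trend between groups does not drop out where the genes of a pair differ in length. Relative effective lengths were 0.22 for Cox6a2 and 0.17 for Cox6a1, and 0.09 for Cox7a1 and 0.21 for Cox7a2. They were 0.075 for Cox8b and 0.16 for Cox8a. The part of length in the shares was not tested. The share of Cox6a2 in Cox6a1 and Cox6a2 was 40.1 to 45.5% in the controls (median 42.3%) and 35.1 to 38.4% at 10 Hz (median 37.4%). The 10 Hz libraries were all below the controls, with a difference of -5.66 percentage points (exact permutation p 0.0022, adjusted 0.016). At 4 Hz it was 36.9 to 40.8%, a difference of -4.07 points that passed by little (exact permutation, adjusted p 0.032) and ended when any of 8 single libraries was left out (replicates 1, 2, 4 or 6 of Control, or 1, 3, 4 or 5 of 4 Hz). At 1 Hz the libraries spread from 24.5 to 43.8%, and the difference of -6.19 points did not pass (exact permutation, adjusted p 0.060).
The share of Cox8b, the muscle form of subunit VIII, in Cox8a and Cox8b was 29.4 to 35.2% in the controls and 24.6 to 28.3% at 10 Hz, again without overlap. The difference was -5.0 points (exact permutation p 0.0022, adjusted 0.016). At 1 and 4 Hz it was 28.9% ± 6.38 and 33.3% ± 3.96 (SD, n = 6), with differences of -2.55 and 1.84 points from the controls (exact permutation, adjusted p 0.54 for both).
The share of Cox7a1 in Cox7a1 and Cox7a2 was 23.4% ± 1.33 in the controls, 26.6% ± 2.79 at 4 Hz and 20.4% ± 2.18 at 10 Hz. The differences of 3.20 and -3.0 points did not pass (exact permutation, adjusted p 0.060 for both) and did so on CPM. Cox4i2, the form induced by low oxygen, had at most 0.188 CPM in a library, and a change in its share was not detectable at this depth. The myotube markers as a set summed to 12117 to 15228 CPM at 10 Hz and 13076 to 16585 CPM in the controls, with 0 of 12 called. Of the 12, 11 were below the controls at 10 Hz (median -0.15), as were 37 of the 45 members, while 52.1% of all tested genes were above. For 2 markers every 10 Hz library was below every control library (0.864% of all tested genes). At 4 Hz all 12 were above the controls (median 0.28), where the Cox6a2 share was lower and the Cox7a1 and Cox8b shares were higher without passing. At 1 Hz 11 were above (median 0.09), and no share passed. The part of the myotube markers in the isoform shares was not tested.

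**Figure D4:**
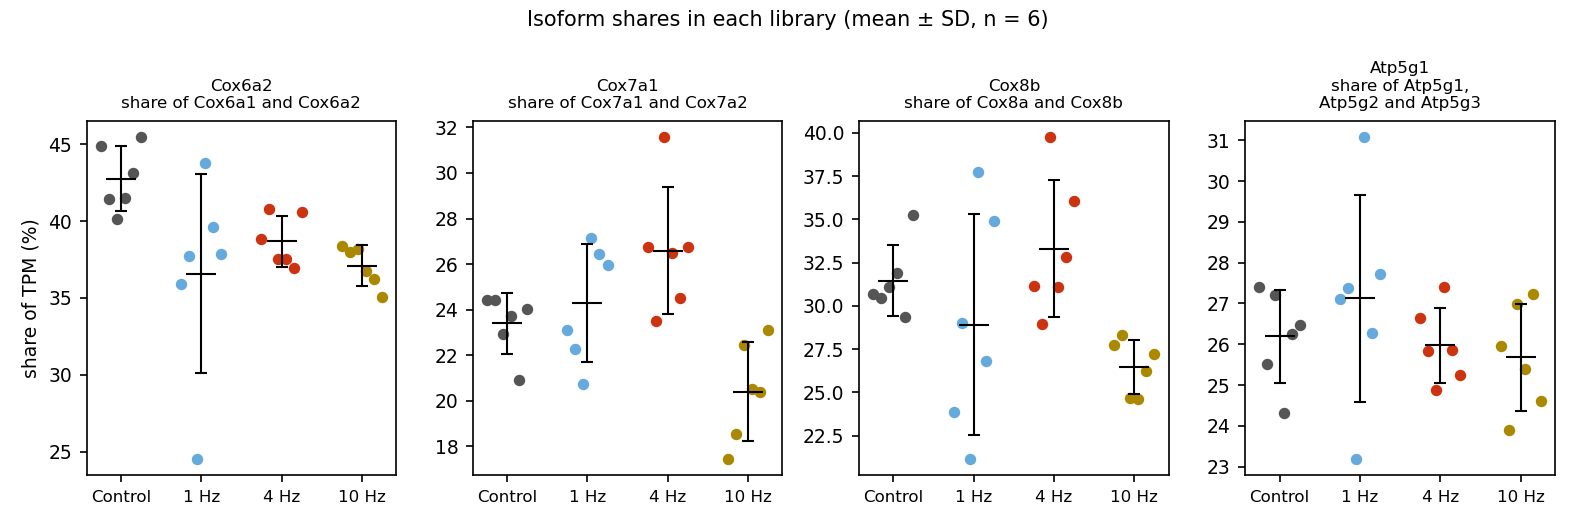
Share of the named isoform in the summed TPM of its pair or trio in each of the 24 libraries, in percent, with the mean and SD of each group; the vertical axes do not start at 0 and differ between panels. The 10 Hz libraries lie below every control for Cox6a2 (35.1 to 38.4%) and Cox8b (24.6 to 28.3%), and the Atp5g1 groups overlap.

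In complex V, 12 of 17 tested genes rose at 4 Hz, with a median of 0.50. Of the catalytic head, the beta and alpha subunits did not pass. Atp5b, the catalytic beta subunit and the member with the highest TPM (control median 1991 TPM; 1730 to 2086 CPM in the controls and 1895 to 2226 CPM for 4 Hz), had a difference of 0.14 ± 0.09 that did not pass (adjusted p 0.16). Atp5a1, the alpha subunit, had 0.01 ± 0.08 (adjusted p 0.93), with 708 to 820 CPM in the controls and 717 to 837 CPM at 4 Hz. On log2(TPM + 1) it was -0.32 and passed in limma (adjusted p 0.0053). Atp5c1, the gamma subunit that forms the shaft, rose by 0.35 ± 0.11 (adjusted p 0.010), a call that ended without 4 Hz replicate 3 (adjusted p 0.052 in edgeR).
Atp5e, the epsilon subunit at the foot of the shaft (chromosome 2, 174302861 to 174305906, GRCm39), had the largest change of the 45 tested members and is named for that. It ranged from 49.9 to 93.8 CPM in the controls (median 59.6), from 48.0 to 202 CPM at 1 Hz (median 107), from 81.9 to 299 CPM at 4 Hz (median 125) and from 51.4 to 71.0 CPM at 10 Hz (median 58.8). The 4 Hz libraries overlap the controls only through the lowest 4 Hz and the highest control library. Atp5e rose by 1.24 ± 0.32 for 4 Hz, with an adjusted p of 0.0034, and by 0.90 ± 0.32 for 1 Hz, with an adjusted p of 0.034. The 1 Hz call ended in 7 of 12 settings, those without replicates 3, 4, 5 or 6 of Control or 3, 4 or 6 of 1 Hz (adjusted p up to 0.12 in edgeR).
Atp5l, a membrane subunit associated with dimers of the enzyme, rose by 0.82 ± 0.20 (adjusted p 0.0021). The c ring of the rotor is made from 3 genes that encode the same mature protein. Of these, Atp5g2 rose by 0.39 ± 0.09 (adjusted p 0.00096), with 149 to 193 CPM in the controls and, without overlap, 201 to 271 CPM for 4 Hz. Atp5g1 had 0.28 ± 0.14 and Atp5g3 0.22 ± 0.11, and neither passed (adjusted p 0.086 and 0.089 in edgeR). The share of Atp5g1 in the trio was 26.2% ± 1.14 in the controls and 25.97% ± 0.924 at 4 Hz (SD, n = 6; exact permutation, adjusted p 0.75). In TPM the complex had 9500 ± 537 in the controls and 10634 ± 945 at 4 Hz.

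The 24 libraries showed how the members moved together. The median member level, each gene centered on its mean over the controls, was 0.21 to 0.78 (log2) in the 4 Hz libraries, -0.10 to 0.21 in the controls and -0.24 to 0.15 at 10 Hz. At 1 Hz it was 0.75 in replicate 4 and 0.70 in replicate 6, and -0.11 to 0.15 in the other 4 libraries, within or near the control range. The other genes of the shortest length class were also high in those 2 libraries, at 0.53 and 0.46. Over the 24 libraries the 2 medians had a Pearson correlation of 0.97, a description of values that share their libraries and their scaling.

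**Figure D5:**
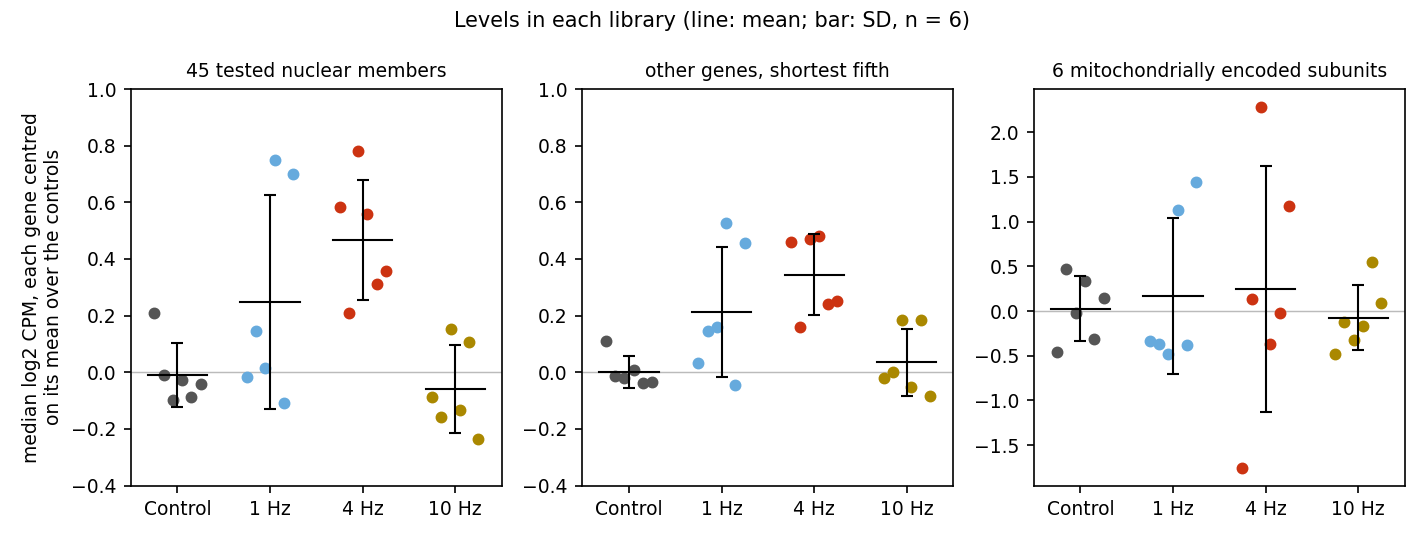
Median log2 CPM of the 45 tested members, of the other genes of the shortest length class and of 6 mitochondrially encoded subunits in each library, centered for each gene on its mean over the controls, with the mean and SD of each group; the third panel has a wider axis. At 1 Hz, 2 libraries lie at 0.70 and 0.75 for the members and the other 4 lie at -0.11 to 0.15.

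The 1 Hz calls rest on those libraries. Without replicate 4 of 1 Hz, 3 members were called higher in place of 14, and without replicate 6, 2 were. With both left out, a choice made after their levels were seen, 1 member was called higher, Cox6a1 at 0.32 (adjusted p 0.018 in edgeR), and 2 lower, Uqcrc1 and Atp5a1 at -0.24 and -0.18, where 13% and 16.1% of all tested genes were called, and the median was 0.003. The count also fell to 5, 6, 6 and 7 without replicates 3, 4, 5 and 6 of Control, and rose to 22 and 25 without replicates 1 and 5 of 1 Hz. Against this, the count at 4 Hz stayed between 24 and 36 when any single library was left out. At 4 Hz, every library was above every control library for 15 members (12.9% of all tested genes).

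The frequencies were also compared with each other in the same fit. At 10 Hz against 4 Hz, 40 members were lower and 0 higher (24.4% of all tested genes were called lower), with a median of -0.51 against -0.05 for all tested genes. Of these, 18 had every 10 Hz library below every 4 Hz library (8.1% of all tested genes). All 14 tested genes of complex IV were called lower, 14 of 17 in complex V, 8 of 9 in complex III and all 4 in complex II. Cox7a1 had the smallest p, at -1.28 (adjusted p 0.00043). With the length trend removed, 20 were lower and 2, Cox8a and Atp5g3, higher (22.7% and 22.6% of all tested genes), and the median was -0.17.
At 10 Hz against 1 Hz, 16 members were lower (13.1% of all tested genes), but 0 were without replicate 4 of 1 Hz and 1 without replicate 6. At 4 Hz against 1 Hz, 0 members were called, with 1 at an unadjusted p under 0.05 and 0 called by DESeq2 (edgeR called 0% of all tested genes). Without replicates 4 and 6 of 1 Hz, the choice made after seeing their levels, 32 members were higher at 4 Hz than at 1 Hz (4.89% of all tested genes). The 4 Hz comparisons with Control and with 10 Hz share the same 4 Hz libraries.

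Subunits encoded by mitochondrial DNA were not called at any frequency. The 6 genes mt-Cytb (complex III), mt-Co1, mt-Co2 and mt-Co3 (complex IV), and mt-Atp6 and mt-Atp8 (complex V) gave 0 calls at each frequency. The median difference of the set for 4 Hz was 0.76 (log2), but their summed level ran from 6090 to 84165 TPM over the 4 Hz libraries, against 18787 to 36774 TPM in the controls. At 10 Hz it was 19456 to 33840 TPM. At 1 Hz, replicates 4 and 6, the libraries with the highest nuclear members, had 42999 and 51542 TPM, and the other 4 had 17455 to 21554 TPM. The spread at 4 Hz is wider than any group difference, and a change of the size seen in the nuclear members was not detectable. Some low-input libraries were made by ribodepletion in place of poly(A) selection, and the labels do not say which. Its part in this spread was not tested.

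Other genes of the pathway were taken from lists set beside the members, and their counts at 4 Hz stand against 27.5% of all tested genes called higher and 23.9% called lower. All 36 tested complex I subunits had a positive change at 4 Hz, and 29 rose, with a median of 0.45. At 1 Hz 9 rose and at 10 Hz 0. The gene with the smallest p at 4 Hz was Ndufa11, at 0.57 ± 0.12 (adjusted p 0.00044). Of 25 assembly factors of complex IV, 12 rose and 6 fell at 4 Hz. Cox10, which makes heme A for the complex, fell by 0.70 on the log2 scale (SE 0.09, adjusted p 9.4e-07). Among the assembly factors of complex III and cytochrome c, 4 of 10 rose and 2 fell, with Uqcc2 at 1.01 ± 0.23 (adjusted p 0.0010). For complex II, 2 of 4 rose, and for complex V, 3 of 6.
Of 13 tested transcriptional regulators of respiration, 4 rose and 7 fell at 4 Hz, and Ppargc1b, a coactivator of mitochondrial genes, fell by 0.86 (SE 0.16, adjusted p 9.3e-05). These are long transcripts, with a median relative length of 1.52. Of 13 citrate cycle enzymes, 3 rose and 3 fell, shares close to those of all tested genes, with Dlst, a subunit of the 2-oxoglutarate dehydrogenase complex, at -0.26 ± 0.05 (adjusted p 0.00020). Of 7 tested genes of ATP export, 1 rose, Slc25a4, the muscle ADP/ATP carrier, at 0.35 ± 0.12 (adjusted p 0.014). Of 78 mitochondrial ribosomal protein genes, 33 rose and 7 fell, and of 84 tested cytosolic ribosomal protein genes, 82 rose and 1 fell. At 10 Hz, 0 genes of these lists were called. The complex I and ribosomal lists are short transcripts. Their median relative length was 0.21 for complex I, 0.21 for cytosolic and 0.35 for mitochondrial ribosomal proteins. These medians lie in the shortest length class, where 47.9% of the genes other than the members were called higher at 4 Hz.

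Markers of cell types were set beside these values. Their counts stand against 27.5% of all tested genes called higher at 4 Hz and 23.9% called lower. At 4 Hz, 4 of 12 myotube markers rose and 0 fell, with a median of 0.28. These markers summed to 15832 to 19313 CPM at 4 Hz against 13076 to 16585 CPM in the controls. Of 5 markers of undifferentiated or reserve myoblasts, 3 rose and 1 fell. Of 5 proliferation markers, 1 rose and 2 fell, and of 4 tested fibroblast markers, 2 rose and 1 fell. Of 4 macrophage markers, 1 was tested and not called. The part of these cell types in the members' changes was not tested. Of the 45 tested members, 33 share bases with a gene annotated on the other strand, and many have pseudogenes, so that reads could be split or shared where counting did not use strand. The study names a directional library kit, but whether counting used strand is not given. The share of such overlaps over all tested genes was not determined.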

How the data were processed

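RNA of C2C12 muscle tissues was sequenced from 24 libraries. Reads were taken through nf-core/rnaseq against GRCm39 by the authors, and the estimated counts per gene (salmon) were deposited without normalization. TPM per gene was deposited as the pipeline gave it, divided by length and scaled to 1000000 per library. Strand use in counting is not given in the sources used here.

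Estimated counts were rounded, filtered with filterByExpr (minimum count 10, total 15), scaled by TMM and fitted in edgeR 4.0.16 (R 4.3.3, quasi-likelihood F test, all 24 libraries). The adjusted p (Benjamini-Hochberg) covers 13315 genes, and 0.05 was the threshold without a limit on fold change. Depth limits precision. The biological coefficient of variation, the spread between replicates apart from counting noise, was 14.8%. CPM is scaled by TMM. Relative effective length is count divided by TPM. Gene positions come from GENCODE M39. The fit was also run on simulated counts with known changes. Those counts had the same spread in every group and no length trend, so that run does not bear on these features of the data. Alternatives used limma 3.58.1 (genes with at least 1 TPM in 6 libraries) and DESeq2 1.42.0, among others. Members and lists were chosen with earlier results of these data known. Named members represent each complex, its isoforms and its catalytic subunits. Atp5e and genes called after the length trend was removed were named after their values were seen. Same-numbered libraries did not deviate together, so the numbers were not used as pairs.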

Additional observations from a re-analysis of the deposited data

Results flagged for a closer look

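Control replicate 1 stood apart from the other 5 controls in 9 of the 152 group checks made, each the highest value of its group by a gap that exceeded Dixon's critical value. The genes were Atp5g1 at 136.6 CPM (next 114.5), Atp5g3 at 269.6 CPM (next 240.1), Cox6b1 at 202 CPM (next 168), Cox7a2l at 250.7 CPM (next 214.5), Cyc1 at 190.9 CPM (next 158.3) and Sdhb at 121 CPM (next 101). In the same library the median log2 level of the members was 0.209 (next -0.01), that of the other genes of the shortest length class 0.109 (next 0.01), and the members' share of TPM 2.24% (next 2.05%). Each measure was checked in every group, so only the control checks could flag this library. Its share of those checks is higher than 9 of 152. Chance flags about 1 in 20 groups, and these values are from 1 library and from genes that move together. Without Control replicate 1, 36 members were called higher at 4 Hz in place of 34.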

How the results depend on the processing

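At 4 Hz, the 34 members called higher became 17 in limma on log2(TPM + 1) or log2(TPM + 0.1), 12 with the length trend removed, 11 with length and GC trends removed and 21 with an absolute log2 fold change over 0.5 as well. Members called lower at 4 Hz became 3 under both TPM pseudocounts and 3 under both trend removals. Leaving out 1 library gave 24 to 36 higher and 0 lower. At 1 Hz, the 14 called higher became 3 without a filter on low counts, 2 under both TPM pseudocounts, 2 and 5 under the trend removals, 7 with the fold limit and 1 without replicates 4 and 6 of 1 Hz, a choice made after seeing the data. Members called lower at 1 Hz became 4 under the TPM pseudocounts, 4 under the trend removals and 2 without those libraries. Leaving out 1 library gave 2 to 25 higher. For 10 Hz against 4 Hz, the 40 called lower became 20 on TPM, 20 and 23 under the trend removals and 24 with the fold limit, with 2 higher under each trend removal. Leaving out 1 library gave 33 to 42. For 10 Hz against 1 Hz, the 16 called lower became 3 without a filter, 9 with only the groups compared, 7 on TPM, 10 under each trend removal (with 1 higher) and 0 without replicates 4 and 6 of 1 Hz. Leaving out 1 library gave 0 to 30: 0 without 1 Hz replicate 4, 1 without 1 Hz replicate 6, 2 without 10 Hz replicate 6, 6 without 10 Hz replicate 2 or 4, 26 without 1 Hz replicate 1 and 30 without 1 Hz replicate 5. For 4 Hz against 1 Hz, 0 became 32 higher without replicates 4 and 6 of 1 Hz. The cause of these shifts was not tested.

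With the replicate number as a block, 6 members were called higher at 1 Hz and 9 lower at 10 Hz against 1 Hz. Paired by number, the isoform shares kept their differences of -4.07 (Cox6a2, 4 Hz), -5.66 (Cox6a2, 10 Hz) and -5.0 (Cox8b, 10 Hz) points. The exact sign-flip permutation test gave an adjusted p of 0.12 for each. With 6 pairs this test has few sign patterns, and its smallest possible p is above that of the unpaired test. After adjustment over all the shares it could hardly pass, so it cannot show whether the differences hold under pairing. Same-numbered libraries had correlations from -0.33 to 0.24 over the pairs of groups, with at most 1 of 6 pairs over 0.1 in any of them. Of the 24 libraries, 0 correlated best with their own number. These values show no strong shared deviation of same-numbered libraries. They cannot show whether such libraries shared other conditions. On TMM-scaled CPM the Cox7a1 share passed, at 1.91 points (4 Hz) and -1.85 points (10 Hz).
Leaving out 1 library, the Cox6a2 share differed by -7.64 to -3.78 points at 1 Hz, -4.59 to -3.53 at 4 Hz and -6.18 to -5.11 at 10 Hz. The Cox7a1 share differed by 2.20 to 3.82 points at 4 Hz and -3.54 to -2.41 at 10 Hz. The Atp5g1 share at 4 Hz ran from -0.60 to 0.013 and the Cox4i2 share at 1 Hz from -0.0027 to 0.014 points.

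Named members turned negative at 4 Hz under some settings. On log2(TPM + 1) the median of all tested genes was itself negative, and 35.9% of genes were called lower. Of the members listed next for that scale, only Sdha, Uqcrc1 and Atp5a1 lie below that median. On log2(TPM + 1) and log2(TPM + 0.1) the log2 fold changes were -0.23 for Sdha, -0.021 for Sdhb, -0.090 and -0.091 for Sdhc, -0.042 for Sdhd, -0.32 for Uqcrc1, -0.15 for Uqcrc2, -0.059 for Uqcrfs1, -0.18 for Cyc1, -0.17 for Cycs, -0.091 for Cox5a, -0.019 for Cox6a2, -0.32 for Atp5a1, -0.12 for Atp5b, -0.059 for Atp5g1 and -0.12 for Atp5g3. With the length trend removed, and then with GC as well, they were -0.0012 and -0.063 for Uqcrc1, -0.078 and -0.14 for Cyc1, -0.21 and -0.22 for Cox5a, -0.11 and -0.13 for Cox5b, -0.12 and -0.18 for Cox6a2, -0.053 and -0.13 for Cox8a, -0.077 and -0.10 for Cox8b, -0.19 and -0.23 for Atp5g1, -0.021 and -0.049 for Atp5g2, and -0.20 and -0.20 for Atp5g3. Cox6a1 was -0.0068 with both trends removed. Atp5a1 was -0.017 with RLE size factors, -0.034 without a filter, -0.017 with only the groups compared and -0.016 in DESeq2, and -0.046 to 0.032 when 1 library was left out. The cause was not tested.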
